A study of Rattus norvegicus with 6 samples.

Results

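The genes described here are Srf, which encodes serum response factor, and 9 genes of the smooth muscle contractile apparatus: Acta2, Actg2, Tagln, Cnn1, Cald1, Smtn, Lmod1, Tpm1 and Tpm2. These 10 of the 18237 genes in the count tables were selected on their symbols by someone who already knew how siMt2 and siNT libraries differed in them, so that difference is given as a description, without a test of its own. All 10 were found and all 10 passed the filter on low counts. The libraries were made from total RNA of cultured rat cells that the labels call NRVM, the usual short form for neonatal rat ventricular myocytes, while the growth protocol speaks of embryonic rat myocardium. Cells of the siMt2 group (n = 3 libraries) had received an siRNA that the labels call si-Mt2, and cells of the siNT group (n = 3 libraries) a control siRNA. Both groups were grown in DMEM with fetal bovine serum, and the protocol text that both share also lists dexamethasone, isobutylmethylxanthine and insulin without saying whether these cells were given them. Nothing in the labels ties a library to a culture of its own, so p-values speak of library-to-library spread alone, and that spread may be technical.

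Serum response factor is a DNA-binding protein that recognises the CArG box, a short element with an A/T-rich core. With the myocardin family (myocardin itself and the actin-sensing MRTF proteins) it switches on genes of the contractile and actin cytoskeleton, and with ternary complex factors of the ELK family it switches on immediate early growth genes. Free actin monomers hold MRTF proteins back, and the building of actin filaments releases them. The contractile members carry out the response: smooth muscle actins form the thin filament, tropomyosins, calponin, caldesmon, transgelin and smoothelin lie along it, and leiomodin starts new filaments. In the heart these transcripts are known from vascular smooth muscle, from activated fibroblasts and from immature muscle cells.

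The CArG box was looked for in the promoters because it is the element SRF binds. RefSeq sequences (assembly GRCr8) from 250 bases before to 50 bases after an annotated start were at hand for 8 of the 10 genes, in 9 windows since Cald1 has more than 1 start, and not for Tagln and Lmod1. The exact CArG box was found in 1 of the 8 genes, Srf itself, as well as in 1.64% of all 33469 windows and in 1.5% of the 9818 windows of genes tested for expression. With 1 mismatch allowed inside the A/T core, Acta2 was the second of the 8 genes, against 9.42% of all windows and 8.3% of those of tested genes. The stretches that hold these matches are shown, in lower case with the CArG matches in capitals. The Srf stretch is chr9:21923956-21924075 (plus strand, 120 bases) and the Acta2 stretch chr1:241172504-241172653 (minus strand, 150 bases), and both end at the base before the annotated start.

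Srf: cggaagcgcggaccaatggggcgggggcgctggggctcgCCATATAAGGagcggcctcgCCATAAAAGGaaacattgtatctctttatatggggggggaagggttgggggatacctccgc

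Acta2: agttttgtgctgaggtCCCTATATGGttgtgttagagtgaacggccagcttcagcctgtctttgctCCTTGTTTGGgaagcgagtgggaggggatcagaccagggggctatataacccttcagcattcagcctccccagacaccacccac

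The exact boxes of Srf begin 81 and 61 bases before the start, and the mismatched boxes of Acta2 begin 134 and 84 bases before it. The letters CATTCC, the core of the element that TEAD factors bind, were found on either strand in Acta2, Cald1 and Tpm1, 3 of the 8 genes, in 14.2% of all windows and in 11.2% of those of tested genes. The letters TATAAA, also looked for on either strand, were found in Cald1 and Srf, 2 of the 8 genes. In Srf they lie on the opposite strand and read TTTATA in the stretch shown. They were found also in 14.2% of all windows but in 6.77% of those of tested genes. The motifs can overlap one another. Such matches describe the letters of these windows and do not show binding, and elements outside the windows were not analysed here.

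Library totals ranged from 2859759 counts (siMt2 replicate 3, the smallest) to 6817777 counts, so that 3 counts, the limit a count of 0 allows, equalled 0.437 to 1.05 CPM. CPM is the usual unit of counts scaled to a common library total, with totals adjusted here by TMM. Mt2a, the rat metallothionein 2 gene and taken here as the target of the siRNA, stood at 70.4, 87.0 and 141 CPM in siMt2 libraries and at 90.4, 169 and 93.0 CPM in siNT libraries, so the groups overlapped (log2 fold change -0.28, SE 0.42, edgeR adjusted p = 0.631). The label of the siMt2 group was therefore not visible in its target, and directions below are those of the libraries labelled siMt2 and siNT. Of 11726 genes tested across the transcriptome, 5970 (50.9%) passed an adjusted p of 0.05, with 25.8% higher and 25.1% lower in siMt2 libraries. In these bulk samples, fewer cells of a type and less RNA per cell cannot be told apart.

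Most of the contractile genes, and Srf with them, stood higher in siMt2 libraries. The same fit that called 25.8% of all genes higher and 25.1% lower called 8 of the 10 members higher, 1 lower (Cald1) and 1 neither way (Smtn). All 3 siMt2 libraries lay above all 3 siNT libraries for 8 members, as they did for 28.9% of all genes tested, and below them for 1, as they did for 28.7%. Since the members were chosen with this contrast known, nothing is read from these counts. The median log2 fold change was 0.61 over the 10 members and 4.34e-04 over all genes tested. Together the 10 genes took 0.699%, 0.708% and 0.697% of the counts of siMt2 libraries, against 0.481%, 0.480% and 0.479% in siNT libraries.

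**Figure D1:**
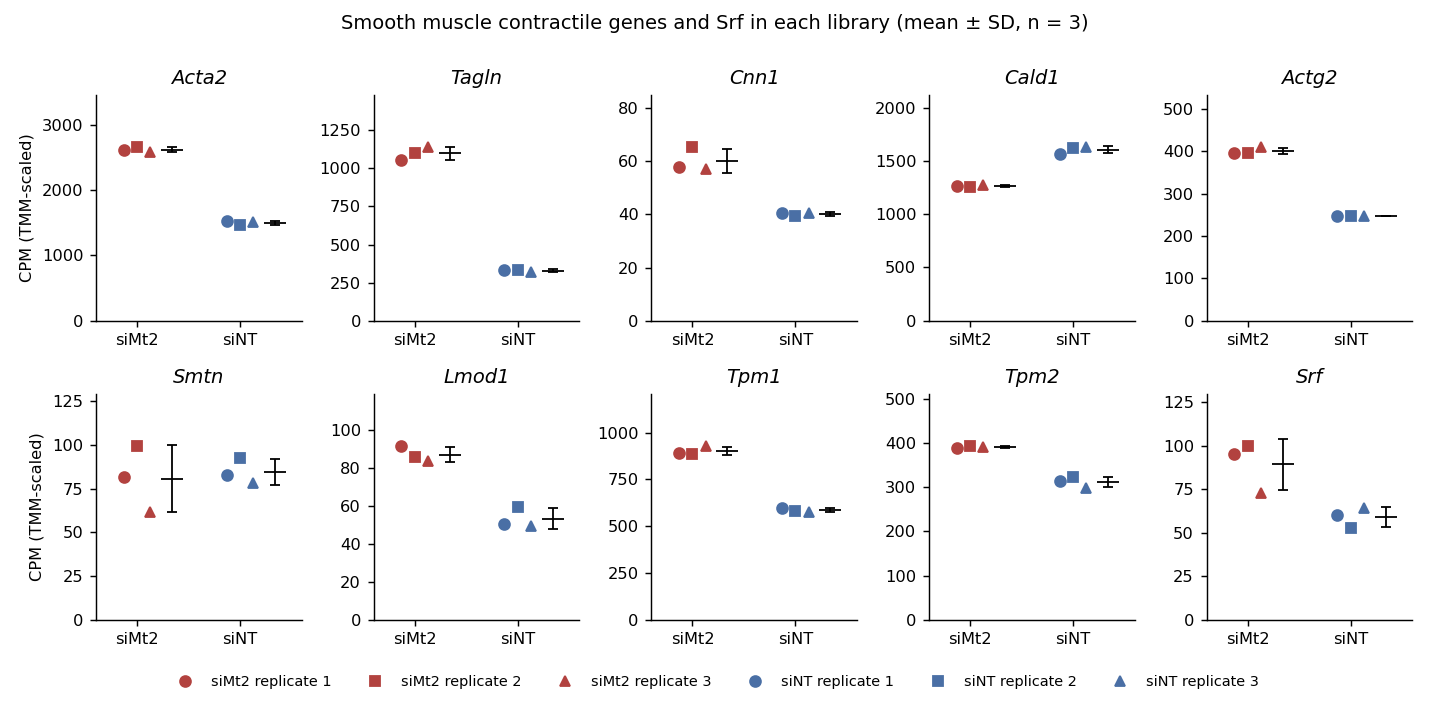
TMM-scaled CPM (vertical axis, starting at 0) of the 10 genes in the 3 siMt2 libraries (left, red) and the 3 siNT libraries (right, blue), with mean and SD beside the points. The groups stand apart for 9 genes, lower in siMt2 libraries for Cald1 alone, and overlap for Smtn, where siMt2 replicate 3 is the lowest of all 6 libraries.

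Srf, the transcription factor of the set, stood at 95.5, 99.7 and 72.7 CPM in siMt2 libraries and at 60.3, 52.7 and 64.3 CPM in siNT libraries. The groups did not overlap, but siMt2 replicate 3 lay well under the other siMt2 libraries, at 74.5% of their mean, and only 1.13 times above the highest siNT library. The log2 fold change was 0.61 (SE 0.11, 95% interval 0.38 to 0.83). It was 0.71 without siMt2 replicate 3 and 0.53 without siNT replicate 2, the lowest library. Srf replicates scattered by 16.3% of their mean in siMt2 libraries and 10.0% in siNT libraries, whereas counting alone would give 4.83% and 5.54%.

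Acta2, the vascular smooth muscle actin, stood at 2618, 2656 and 2578 CPM in siMt2 libraries and at 1525, 1462 and 1504 CPM in siNT libraries. The lowest siMt2 library was 1.69 times the highest siNT library, and the log2 fold change was 0.81 (SE 0.034, 95% interval 0.73 to 0.88). Actg2, the actin of visceral smooth muscle, stood at 397, 397 and 410 CPM in siMt2 libraries and at 246, 247 and 247 CPM in siNT libraries, with a log2 fold change of 0.70 (SE 0.045). The 95% interval of Actg2 was 0.61 to 0.79. Actin genes are near-identical in coding sequence, and the sources used here do not say how reads matching several genes were counted, so the split of reads between Acta2, Actg2 and the other actins is uncertain.

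Tagln, an actin-bundling calponin relative also known as SM22 and an early marker of the smooth muscle lineage, differed more between the groups than any other member. Its values were 1056, 1101 and 1140 CPM in siMt2 libraries and 333, 336 and 320 CPM in siNT libraries. The lowest siMt2 library was 3.15 times the highest siNT library. The log2 fold change was 1.74 (SE 0.043, 95% interval 1.65 to 1.83). Cnn1, the smooth muscle calponin that dampens myosin ATPase activity, was a far rarer count, with 57.6, 65.3 and 57.2 CPM in siMt2 libraries and 40.7, 39.3 and 40.5 CPM in siNT libraries. The groups of Cnn1 did not overlap, and its log2 fold change was 0.58 (SE 0.096, 95% interval 0.38 to 0.78).

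Cald1, which encodes caldesmon, an actin- and myosin-binding protein with a smooth muscle and a non-muscle form, went the other way. It stood at 1263, 1256 and 1277 CPM in siMt2 libraries and at 1566, 1625 and 1629 CPM in siNT libraries, and its log2 fold change was -0.34 (SE 0.035, 95% interval -0.42 to -0.27). The siMt2 libraries agreed to within 0.811% of their mean (SD), and all of them were below the lowest siNT library. Counts per gene do not separate the forms of caldesmon. Smtn, which encodes the cytoskeletal protein smoothelin, stood at 81.6, 99.2 and 61.4 CPM in siMt2 libraries and at 82.6, 92.7 and 78.4 CPM in siNT libraries. The groups of Smtn overlapped, and its log2 fold change of -0.038 (SE 0.15) had a 95% interval of -0.37 to 0.30, which does not show that the groups were alike. Its sign was positive (0.093) without siMt2 replicate 3.

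Smtn and Srf shared a feature within the siMt2 group that the choice of members did not use. In siMt2 replicate 3, Smtn lay at 67.9% and Srf at 74.5% of the mean of siMt2 replicates 1 and 2, whereas the other 8 members lay between 93.1% (Cnn1) and 106% (Tagln). Smtn scattered by 23.4% of its mean in siMt2 libraries, against 5.09% expected from counting. Of 4507 genes with at least 50 CPM in siMt2 libraries, whose median scatter was 5.84%, 1.22% scattered as much as Smtn or more and 4.46% as much as Srf or more. These 2 genes were singled out after their values had been seen. The same library was the lowest of its group for 36.1% of all genes tested and the highest for 41.2%, and it had the lowest total.

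Lmod1, the smooth muscle leiomodin that nucleates actin filaments, stood at 91.2, 85.8 and 83.5 CPM in siMt2 libraries and at 50.6, 59.3 and 49.3 CPM in siNT libraries. The lowest siMt2 library was 1.41 times the highest siNT library, and the log2 fold change was 0.73 (SE 0.088, 95% interval 0.54 to 0.91).

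The tropomyosins form coiled coils along the actin filament. Tpm1 stood at 891, 888 and 927 CPM in siMt2 libraries and at 599, 582 and 578 CPM in siNT libraries, and its log2 fold change was 0.62 (SE 0.039, 95% interval 0.54 to 0.70). Tpm2 stood at 388, 392 and 391 CPM in siMt2 libraries and at 313, 322 and 299 CPM in siNT libraries, and its log2 fold change was smaller, at 0.33 (SE 0.046, 95% interval 0.23 to 0.42). The groups overlapped for neither gene. The 2 intervals describe the spread between libraries and are not a test of one gene against the other. Both genes give muscle and non-muscle isoforms that counts per gene do not separate.

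**Figure D2:**
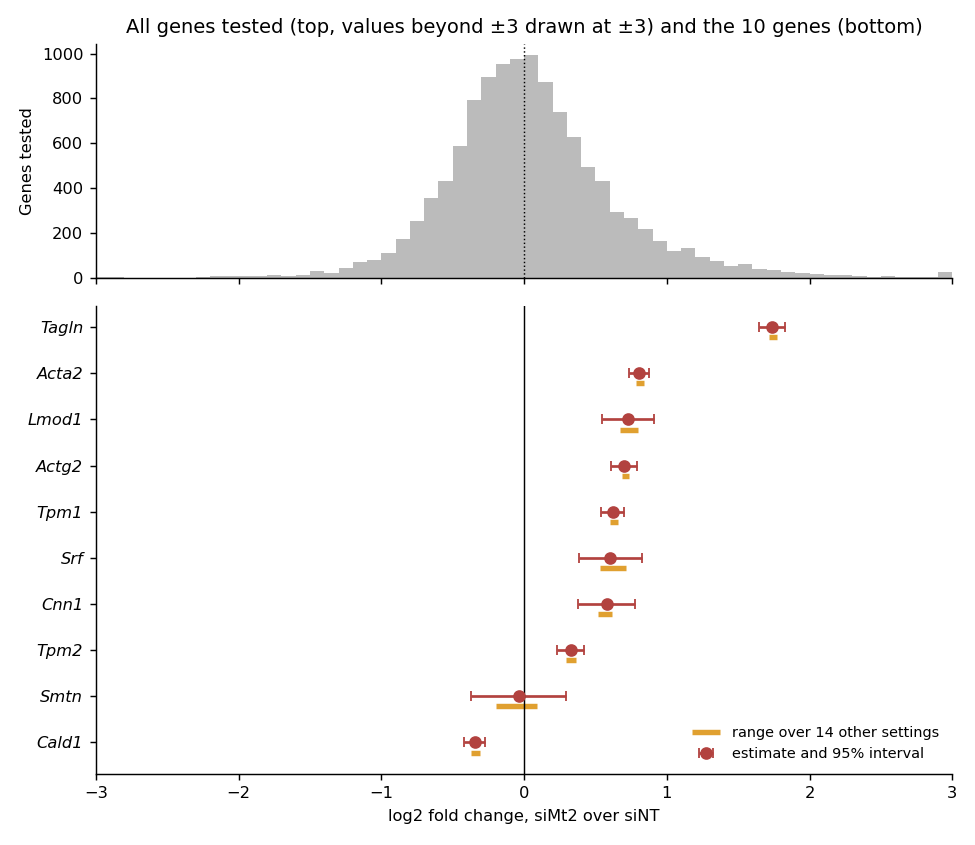
Top, number of genes tested (vertical axis) by log2 fold change of siMt2 over siNT (horizontal axis). Bottom, estimate with 95% interval (red) for each of the 10 genes and, in yellow, the range of its estimate over 14 other processing settings. Tagln lies furthest to the right at 1.74, Cald1 lies left of 0 at -0.34, and the interval and range of Smtn cross 0.

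Across 14 other settings of scaling, filter, test and libraries, 9 members kept the sign of their log2 fold change. The estimate lay between 1.71 and 1.78 for Tagln, between 0.78 and 0.84 for Acta2, between -0.37 and -0.31 for Cald1, between 0.53 and 0.71 for Srf, and between -0.20 and 0.093 for Smtn. When the profiles of members over the 6 libraries were centred on their means (log2 of CPM + 1), Actg2 and Tpm1 were the closest pair, with a root mean square difference of 0.043, and Tagln and Cald1 the most distant, at 1.04. Transcript lengths were not at hand, so levels are compared between libraries and not between genes.

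Within their protein families, smooth muscle members of the actins and transgelins took larger shares in siMt2 libraries, a measure that does not depend on library scaling. Acta2 took 38.3%, 38.0% and 37.6% of the counts of 6 actin genes in siMt2 libraries, against 26.5%, 25.7% and 27.1% in siNT libraries. Actg2 took 5.81 ± 0.146% in siMt2 libraries and 4.35 ± 0.0791% in siNT libraries (SD, n = 3 each). The cytoplasmic actin gene Actb took 41.6 ± 0.496% in siMt2 libraries and 52.2 ± 0.333% in siNT libraries, with no overlap. Tagln took 65.1 ± 1.00% of the counts of the transgelin genes Tagln and Tagln2 in siMt2 libraries and 43.0 ± 0.898% in siNT libraries. Shares within a family add up to the whole, so a lower share need not mean a lower level. In CPM, Tagln2 rose (log2 fold change 0.43) and Actb did not pass (-0.043). Among 4 tropomyosin genes, the share of Tpm1 was 37.4 ± 0.454% in siMt2 libraries and 33.8 ± 0.568% in siNT libraries, and the share of Tpm2 was 16.2 ± 0.387% in siMt2 libraries and 18.0 ± 0.636% in siNT libraries. Cnn1 took 6.17 ± 0.494% of the counts of 3 calponin genes in siMt2 libraries and 6.22 ± 0.278% in siNT libraries, and these ranges overlapped.

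**Figure D3:**
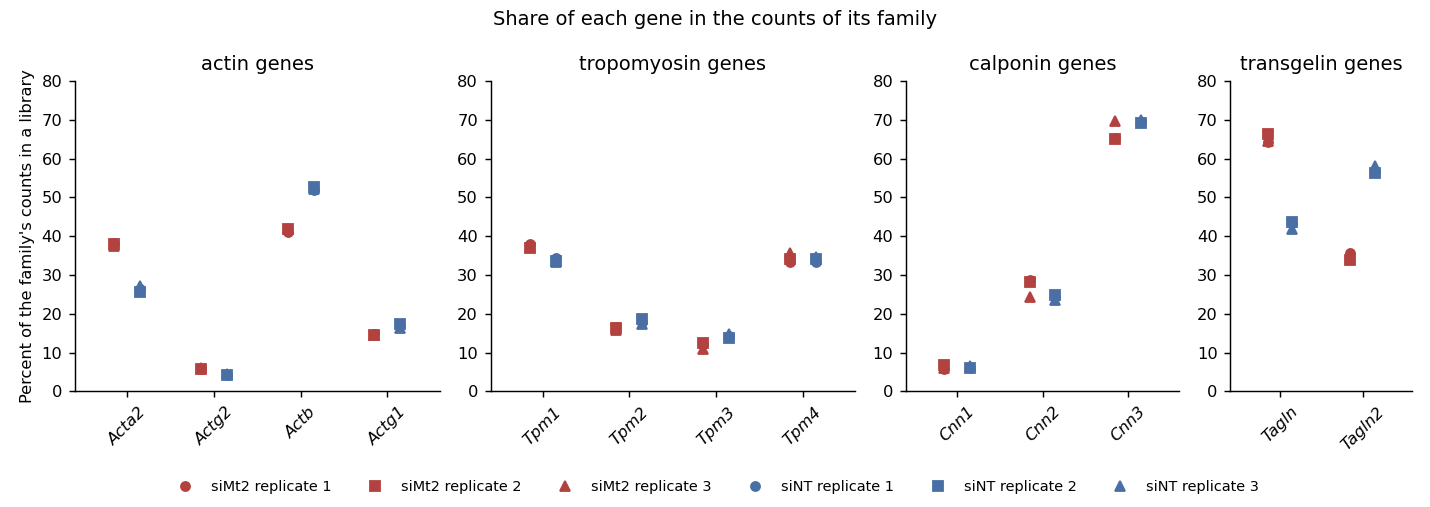
Percent of a family's counts (vertical axis, starting at 0) that each actin, tropomyosin, calponin and transgelin gene took in each siMt2 library (red, left of each pair) and siNT library (blue, right). Genes under 1% of their family are not drawn. The shares of Acta2 and Tagln stand higher and those of Actb and Tagln2 lower in all 3 siMt2 libraries, while the calponin shares overlap. Shares of a family add up to the whole, so a lower share need not mean a lower level.

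The paralogs themselves, none of them a member, were tested in the fit over all genes, where 5 of 10 tested were higher, 1 lower and 4 did not pass. Their median log2 fold change was 0.14. Over all genes tested 25.8% were higher and 25.1% lower, and nothing is read from the paralog counts. The calponin genes of non-muscle cells rose, with Cnn2 at 264 ± 26.9 CPM in siMt2 libraries and 157 ± 9.61 CPM in siNT libraries (log2 fold change 0.76, SE 0.068, edgeR adjusted p = 4.44e-08). Cnn3 stood at 650 ± 18.1 CPM in siMt2 libraries and 449 ± 17.3 CPM in siNT libraries (log2 fold change 0.53, SE 0.043). The non-muscle tropomyosin genes Tpm4 (0.49, SE 0.044) and Tpm3 (0.21, SE 0.050) and the transgelin gene Tagln2 (0.43, SE 0.045) rose as well. Lmod3, the leiomodin of striated muscle, fell to 4.79 ± 1.05 CPM in siMt2 libraries, against 15.6 ± 2.17 CPM in siNT libraries (log2 fold change -1.75, SE 0.23, edgeR adjusted p = 1.93e-06). The cytoplasmic actin genes did not pass, with log2 fold changes of -0.043 (SE 0.033) for Actb and 0.066 (SE 0.040, edgeR adjusted p = 0.177) for Actg1, though Actg1 passed without siMt2 replicate 3 (0.0455). Neither did the tropomodulin genes Tmod1 (-0.17, SE 0.41) and Tmod3 (-0.15, SE 0.074). Acta1 and Actc1, the skeletal and cardiac actins, had 30 and 4 counts over all 6 libraries and were not tested.

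Of 14 cofactors and interacting factors of SRF tested, 1 was higher, 5 lower and 8 did not pass, with a median log2 fold change of -0.10. Over all genes tested 25.8% were higher and 25.1% lower, and nothing particular to the cofactors is read from their counts. Myocd, which encodes myocardin, the coactivator of smooth and cardiac muscle genes, fell to 58.1, 67.4 and 63.5 CPM in siMt2 libraries, against 70.4, 84.6 and 80.1 CPM in siNT libraries (log2 fold change -0.32, SE 0.090, edgeR adjusted p = 0.00579). The groups did not overlap, but the call was lost without siMt2 replicate 1 (edgeR adjusted p = 0.0621). The actin-regulated coactivator gene Mrtfa stood at 133, 148 and 102 CPM in siMt2 libraries and at 142, 142 and 135 CPM in siNT libraries and did not pass (-0.11, SE 0.10, 95% interval -0.34 to 0.12). Its siMt2 replicate 3 value was the lowest of the 6. Mrtfb, at 6.58 ± 0.752 CPM in siMt2 libraries and 6.80 ± 1.53 CPM in siNT libraries, had an interval of -0.55 to 0.54.

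The ternary complex factor genes Elk3 (log2 fold change -0.32, SE 0.059, edgeR adjusted p = 1.29e-04) and Elk4 (-0.28, SE 0.054, edgeR adjusted p = 2.58e-04) fell, and Elk1 did not pass (0.010, SE 0.099). Foxo4, a forkhead factor that binds myocardin and holds it back, fell to 36.0 ± 1.16 CPM in siMt2 libraries, against 47.3 ± 1.23 CPM in siNT libraries (-0.39, SE 0.099). Csrp1, a LIM protein that bridges SRF and GATA factors, rose to 669 ± 38.1 CPM in siMt2 libraries, against 501 ± 10.5 CPM in siNT libraries (0.41, SE 0.045, edgeR adjusted p = 1.93e-07). Klf5 fell in the fit over all 6 libraries (-0.28, SE 0.11, edgeR adjusted p = 0.0394), and that call was lost in 8 of 14 other settings, among them each left-out library except siMt2 replicate 3 (edgeR adjusted p = 0.0639 to 0.162). Klf4, a repressor of smooth muscle genes, did not pass (0.23, SE 0.10, edgeR adjusted p = 0.0650), nor did Gata6 (-0.47, SE 0.20), Fhl2 (0.15, SE 0.071), Csrp2 (0.29, SE 0.13) and Scai (-0.094, SE 0.11). Without siMt2 replicate 3, Klf4 (edgeR adjusted p = 0.00767), Fhl2 (0.0153) and Csrp2 (0.0295) passed, as Csrp2 did without siMt2 replicate 2 (0.0417) and Gata6 without siNT replicate 1 (0.0341).

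**Figure D4:**
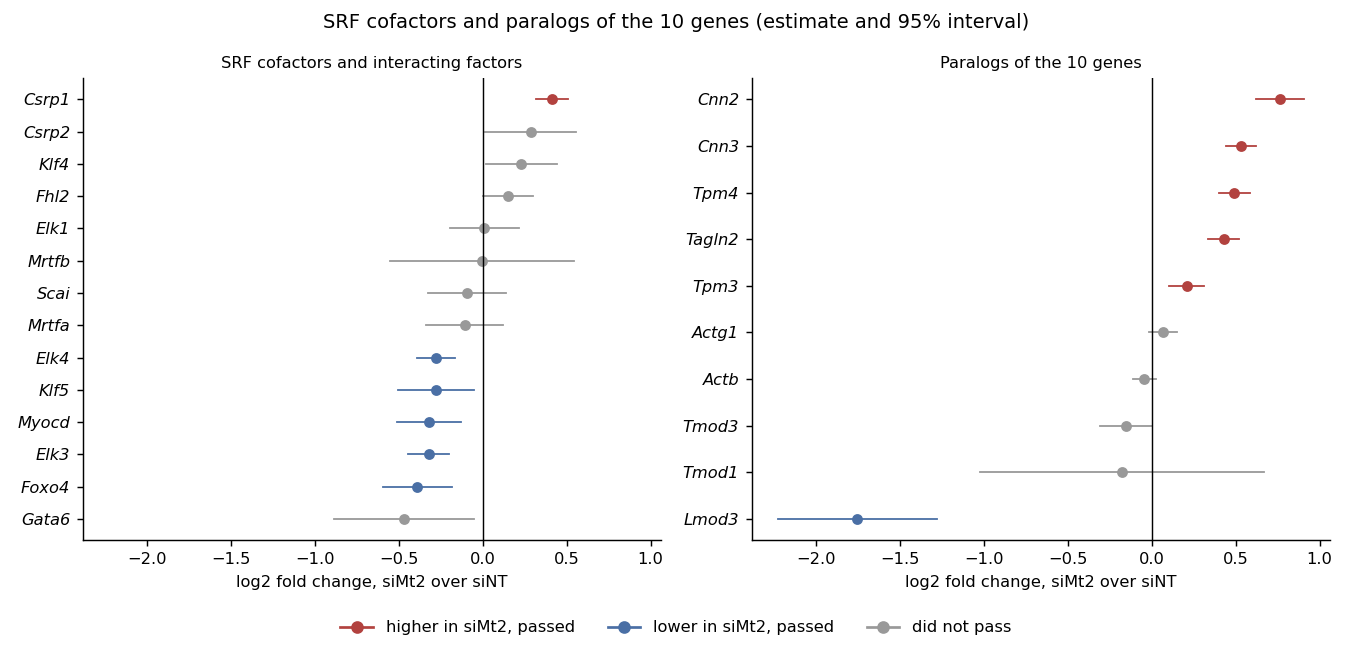
Log2 fold change of siMt2 over siNT (horizontal axis) with 95% interval for SRF cofactors and interacting factors (left) and for paralogs of the 10 genes (right), with genes that passed in red (higher in siMt2 libraries) or blue (lower) and the rest in grey. Csrp1 is the only red gene of the left panel, Myocd at -0.32 is blue, and the right panel runs from Lmod3 at -1.75 to Cnn2 at 0.76.

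Of 23 other smooth muscle genes listed, Kcnmb1, Ppp1r14a and Pdlim3 were nearly absent, with 3, 4 and 2 counts over all 6 libraries, and were not tested. Of the 20 tested, 12 were higher, 4 lower and 4 did not pass, with a median log2 fold change of 0.54. Over all genes tested 25.8% were higher and 25.1% lower. The list was drawn up with earlier results of these data known, so nothing is read from its counts. Myl9, the regulatory light chain of smooth muscle and non-muscle myosin, rose to 553, 544 and 548 CPM in siMt2 libraries, against 188, 193 and 191 CPM in siNT libraries (log2 fold change 1.52, SE 0.044, edgeR adjusted p = 4.17e-16). Casq2, a calsequestrin that stores calcium, rose to 219 ± 1.15 CPM in siMt2 libraries, against 98.3 ± 1.71 CPM in siNT libraries (1.16, SE 0.055), and the matrix protein gene Npnt to 172 ± 11.8 CPM, against 68.5 ± 3.24 CPM in siNT libraries (1.33, SE 0.069). Flna, the actin crosslinker filamin A, fell to 3802, 3807 and 3881 CPM in siMt2 libraries, against 4826, 4855 and 4897 CPM in siNT libraries (-0.34, SE 0.031, edgeR adjusted p = 1.12e-08). Named after their values were seen, Mylk, the kinase that phosphorylates myosin light chain, rose to 13.8 ± 1.42 CPM in siMt2 libraries, against 3.92 ± 0.444 CPM in siNT libraries (1.82, SE 0.23). Myh11, the smooth muscle myosin heavy chain and the defining marker of differentiated smooth muscle, rose to 9.75, 12.5 and 12.3 CPM in siMt2 libraries, against 5.22, 4.05 and 7.03 CPM in siNT libraries (1.03, SE 0.24, edgeR adjusted p = 0.00145).

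Targets of SRF outside the contractile apparatus were followed next. Of 18 other genes that SRF is known to drive with MRTF, 6 were higher, 6 lower and 6 did not pass. Their median log2 fold change was 0.055, beside 25.8% higher and 25.1% lower among all genes tested. The list is not limited to genes of non-muscle cells. Flna, Cnn2, Actb, Actg1, Vcl and Fhl2 stand in this list and in another one above. Tgfb1i1, which encodes the focal adhesion protein Hic-5, rose to 310.1 ± 37.5 CPM in siMt2 libraries, against 137 ± 6.53 CPM in siNT libraries (log2 fold change 1.18, SE 0.074, edgeR adjusted p = 4.22e-09). The muscle stress gene Ankrd1 rose to 970.0 ± 62.6 CPM in siMt2 libraries, against 545 ± 15.8 CPM in siNT libraries (0.83, SE 0.046). The 6 lower genes were Flna, given above, Fblim1 (-0.56, SE 0.080), Ccn2 (-0.34, SE 0.036), Tes (-0.30, SE 0.11), Pdlim5 (-0.25, SE 0.046) and Ccn1 (-0.20, SE 0.053). The call of Tes was lost in 4 of 14 other settings. Immediate early genes, the targets SRF shares with ternary complex factors, were near the detection limit in part, with 7 of 9 tested, of which 2 were higher, 1 lower and 4 did not pass. Their median log2 fold change was 0.28. Egr1 rose to 15.4 ± 1.05 CPM in siMt2 libraries, against 9.07 ± 2.43 CPM in siNT libraries (0.74, SE 0.20, edgeR adjusted p = 0.00450). Nr4a1, an orphan nuclear receptor gene, fell (-0.93, SE 0.17), with raw, unscaled counts of 80, 55 and 24 in siMt2 libraries and 115, 92 and 144 in siNT libraries. Ier2 stood at 29.7, 27.8 and 15.1 CPM in siMt2 libraries and at 18.9, 17.6 and 17.4 CPM in siNT libraries. The groups of Ier2 overlapped, and its call (0.49, SE 0.18, edgeR adjusted p = 0.0344) was lost with any 1 library left out except siMt2 replicate 3 (edgeR adjusted p = 0.0861 to 0.258).

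**Figure D5:**
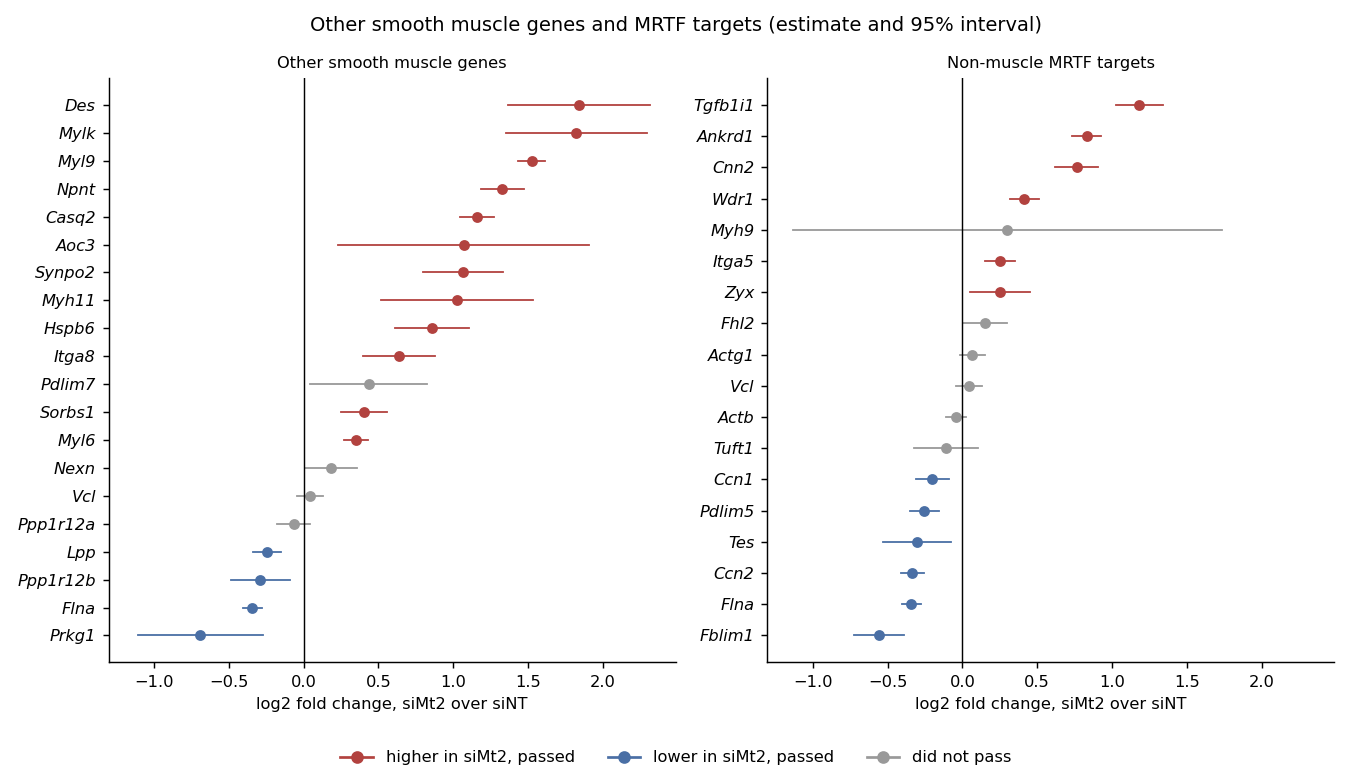
Log2 fold change of siMt2 over siNT (horizontal axis) with 95% interval for other smooth muscle genes (left) and for other targets of SRF with MRTF (right, headed non-muscle though not limited to such genes), coloured by whether a gene passed and was higher (red) or lower (blue) in siMt2 libraries. The left panel holds 12 red and 4 blue genes and the right panel 6 of each.

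The genes whose centred profile over the 6 libraries was nearest to that of Acta2, among 7445 genes with a mean of at least 20 CPM, were H1f0, Preb, Ldha, Itm2b and Pdap1. Their root mean square difference from Acta2 lay between 0.017 and 0.038 on the log2 scale. H1f0, a linker histone gene, stood at 595 CPM in siMt2 libraries and 341 CPM in siNT libraries on average. Nearest to Srf were Xylt2, Pfkl, St3gal5, Arsa and Ppard, with differences of 0.053 to 0.080. Pfkl, the liver-type phosphofructokinase gene, had 92.1, 96.2 and 66.7 CPM in siMt2 libraries and 52.2, 47.4 and 55.6 CPM in siNT libraries, with siMt2 replicate 3 the lowest of its group as in Srf. With 6 libraries in 2 groups, the step between the groups is part of any such likeness.

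Markers of cell types were read beside these results. Over all genes tested 25.8% were higher and 25.1% lower. The marker lists, too, were drawn up with earlier results of these data known, so nothing is read from their counts. The 11 smooth muscle and pericyte markers listed are not members, and some of them (Myocd, Myh11, Itga8, Aoc3 and Kcnmb1) stand in lists above. Rgs5 had no entry, and Kcnmb1, with 3 counts over all 6 libraries, was not tested. Of the 9 tested, 6 were higher and 2 lower. The summed level of the list lay between 674 and 714 CPM in siMt2 libraries and between 716 and 758 CPM in siNT libraries. The receptor gene Pdgfrb, which has the most counts among them, fell (log2 fold change -0.46, SE 0.046), while Notch3 (0.82, SE 0.11), Kcnj8 (25.5 ± 5.32 CPM in siMt2 libraries, against 11.1 ± 1.46 CPM in siNT libraries) and Mcam (0.34, SE 0.059) rose. Of 11 fibroblast markers listed, 2 had no counts or no entry, and Pdgfra, with 2 counts over all 6 libraries, was not tested. Of the 8 tested, 6 were higher and 2 did not pass, and Dcn had only 50 counts over all 6 libraries. The summed level of the list was 9853 to 13811 CPM in siMt2 libraries and 7576 to 7731 CPM in siNT libraries. Most of that sum was Col1a1, at 8387, 8916 and 6005 CPM in siMt2 libraries and 4877, 4568 and 4613 CPM in siNT libraries. Col1a2 scattered widely, at 326, 1147 and 237 CPM in siMt2 libraries and 212, 479 and 311 CPM in siNT libraries, and did not pass. Postn (1.25, SE 0.058), Vim (0.68, SE 0.038), Thy1 (0.80, SE 0.054) and Lum (2.81, SE 0.59) had the smallest adjusted p among the fibroblast markers. The mean of Lum was 3.15 CPM in siMt2 libraries and 0.402 CPM in siNT libraries, where 3 counts equalled 0.458 to 0.715 CPM. Raw counts of Lum were 23, 11 and 10 in siMt2 libraries and 5, 0 and 2 in siNT libraries. Lum and Dcn passed the low-count filter only through siMt2 libraries, where they were higher, so nothing is read from their calls. The part of these cell types in the contractile gene levels was not tested.

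Apart from Tnnt2, the listed markers of the labelled cell type were nearly absent. Genes outside that list, among them Casq2 and Ankrd1 above, were not read as markers of this cell type. Over all 6 libraries the cardiac actin gene Actc1 had 4 counts, and Myh6, a cardiac myosin heavy chain gene, had 9. Only 1 of 10 cardiomyocyte markers, Tnnt2, passed the filter, and it rose (log2 fold change 1.01, SE 0.11), with a summed level of the list of 51.1 to 63.5 CPM in siMt2 libraries and 29.2 to 32.0 CPM in siNT libraries. Of 3 skeletal muscle markers tested, Myod1 (0.46, SE 0.14) and Tnnt3 (0.72, SE 0.21) rose and Myog (-1.47, SE 0.37) fell, with summed levels of 41.8 to 42.8 CPM in siMt2 libraries and 31.3 to 34.1 CPM in siNT libraries. Summed levels in siMt2 and in siNT libraries were 33.3 to 40.7 and 76.1 to 84.8 CPM for endothelial markers, 14.1 to 17.7 and 22.6 to 27.2 CPM for leukocyte markers, 0.582 to 2.12 and 2.75 to 4.05 CPM for adipocyte markers, and 14.4 to 18.9 and 5.96 to 7.03 CPM for Schwann cell and neuronal markers. Those 4 lists had 2, 1, 1 and 2 genes tested, of which Eng, Cd14 and Lipe fell and Dbh and Tubb3 rose. Lipe passed the low-count filter only through siNT libraries and Dbh only through siMt2 libraries, in each case the group where the gene was higher. Nothing is read from those 2 calls. Eng alone made up most of the endothelial sum, with means of 31.5 CPM in siMt2 libraries and 72.8 CPM in siNT libraries. Of the 7 endothelial markers listed, 4 had no counts or no entry, and Vwf did not pass (log2 fold change -0.35, SE 0.33). Lipe lay at 1.28 CPM in siMt2 libraries and 2.80 CPM in siNT libraries, and its call was lost without siMt2 replicate 1 (edgeR adjusted p = 0.294), siNT replicate 2 (0.141) or siNT replicate 3 (0.0644).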

How the data were processed

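The authors deposited 1 table of raw counts per gene and library, without normalization. Per the submitters' processing notes, build rn6 and the tools DESeq2, limma, featureCounts, HISAT2 2.2.1 and Trimmomatic 0.40 were used, with no order or settings. The sources used here do not say how strand and reads matching several genes were handled. Of 18237 rows, 25 with names turned into dates (0.260% of counts) stayed in totals and tests.

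Groups and replicate numbers came from the titles. Counts were fitted across all genes in R 4.3.3 with edgeR 4.0.16: filterByExpr (minimum count 10), TMM, robust quasi-likelihood test, two-sided, Benjamini-Hochberg adjustment over 11726 genes, threshold 0.05. The fit was tested on simulated data. Alternatives were other scalings, other filters, DESeq2 1.42.0, limma-voom (limma 3.58.1), the replicate number as a block, and each library left out in turn. Members and gene lists were chosen with earlier results of these data known. Text names all members, all tested cofactors and paralogs, up to 4 passing genes of each other list by adjusted p, and the 5 nearest profiles to Acta2 and Srf. The lower MRTF targets are named besides, as are some genes of low count or wide spread. The results of 1 further gene list are not reported here. Promoter letters come from RefSeq (GRCr8), another build than that of the counts.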

Additional observations from a re-analysis of the deposited data

How the results depend on the processing

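The members called (8 higher, 1 lower) were the same in number under all 14 other settings. In the main fit 25.8% of all genes tested were called higher and 25.1% lower. Under the 9 settings that change scaling or libraries, 9 members had groups that did not overlap. Over all genes tested, siMt2 libraries lay above all siNT libraries for 28.9% and below them for 28.7%. Leaving out a library can hardly make separate groups overlap, and the members were chosen with this contrast known. Nothing is therefore read from these member counts. The number of genes passing ranged from 4961 (DESeq2) to 6276 (no filter), and from 5109 to 6254 with 1 library left out. Immediate early genes passing numbered 3, but 5 under upper quartile scaling and 5 without a filter, and 2 under DESeq2 and without siMt2 replicate 1, siNT replicate 1 or siNT replicate 2. The cause was not tested. A CArG box was found in the promoter of 1 member, and of 2 when 1 mismatch was allowed. Of 103 other genes followed through the settings, 21 changed side of the threshold in at least 1 setting, and none of the 103 changed sign where it passed in either fit. Same-numbered libraries did not deviate together (correlations across genes of 0.0019, -0.055 and 0.033 for numbers 1, 2 and 3, and the highest correlation of siMt2 replicate 1 was with siNT replicate 2). With the replicate number as a block, 5897 genes passed, and of the cofactors and other list genes Klf5 lost its call (edgeR adjusted p = 0.0505) and Nexn gained one. Upper quartile scaling moved the median of all genes to 0.039. At the lowest total, 2859759 counts, genes under about 1.05 CPM were not measurable.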

Other observations

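Myh9, the non-muscle myosin heavy chain gene in the list of MRTF targets, spread more between replicates than any other gene of that list, with 297, 186 and 92.3 CPM in siMt2 libraries and 199, 95.3 and 188 CPM in siNT libraries. It did not pass (log2 fold change 0.30, SE 0.53, edgeR adjusted p = 0.682). It was picked after its values were seen, and siMt2 replicate 3 was the lowest library for it as for Smtn.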
